A study of Mus musculus with 4 samples.

Results

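Promoter regions of liver that carried acetylated histone H3 lysine 27 (H3K27ac) 12 h after partial hepatectomy, and that had no acetylated region at the same place in sham-operated liver, were described by their width, position and assigned genes. They were chosen from the authors' merged region lists: a region of the list made 12 h after hepatectomy (PHx) was taken when its annotation named a promoter (within 3 kb of a start site) and when it shared no base with any region of the sham list. This rule gave 1345 of the 7665 promoter regions of the PHx list, or 17.5%. In the opposite direction, 932 of the 7864 promoter regions of the sham list, or 11.9%, shared no base with a PHx region. Both numbers follow from the choice itself and are given as a background for the counts below. The 1345 regions covered 18.5 Mb and were assigned to 1323 distinct genes.

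The regions came from whole liver of wild-type C57/BL6J mice 12 h after surgical removal of 70% of the organ, in 2 libraries. They were set against liver of sham-operated wild-type mice of that strain, also in 2 libraries. All 4 libraries were made by CUT&Tag, in which an antibody against H3K27ac leads a transposase to acetylated chromatin, where it cuts and tags the DNA. The sham libraries carry no time after surgery in the labels and the series design speaks of 0 h, so hepatectomy, hours since surgery and time of day cannot be told apart. Whether the 2 libraries of a group came from separate mice is not stated, nor is the sex of the mice. Only 1 merged list per group was used, without signal or read counts, so depth and the spread between libraries cannot be given and no test between groups was possible. Every listed region held at least 1 peak of each of its group's 2 libraries. The PHx list held 10170 regions and the sham list 11602 regions.

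H3K27ac is laid down by acetyltransferases at active promoters and enhancers, where it spreads over the nucleosomes on both sides of the start site. After partial hepatectomy the remaining lobes regrow: hepatocytes leave their resting state and enter the cell cycle within days in the mouse, while endothelial, stellate and Kupffer cells supply growth factors, matrix and cytokines and divide later. Whole liver holds all of these cells. A region present only in the PHx list can therefore reflect more acetylation per cell or a larger share of cells that carry it, and the lists cannot tell these apart.

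The reference promoters of 6 of the genes are printed with their CG dinucleotides in capitals, to show both CpG-poor and CpG-rich promoters among the members. Both kinds occur among the endothelial members, of which 4 of the 8 with a single RefSeq start site were CpG-rich (GC content of at least 50% and an observed to expected CG ratio of at least 0.6), against 50.8% of all members with such a site. Genes that also had a PHx promoter region overlapping sham were left out of these counts. Each window runs from 250 bases before to 50 bases after the start site, read 5' to 3' in the direction of the gene, and was taken from RefSeq on GRCm38.p6, a different build from the GRCm39 of the region lists. Robo4 encodes a guidance receptor of endothelium (chr9:37401722-37402021, plus strand). Clec4g encodes a lectin of liver sinusoidal endothelium (chr8:3720602-3720901, minus strand). Elk3 encodes an ETS-family factor (chr10:93311110-93311409, minus strand). Sparc encodes a matrix glycoprotein (chr11:55420031-55420330, minus strand). Mpeg1 encodes a pore-forming protein of macrophages (chr19:12460520-12460819, plus strand). Cdk2 encodes a kinase that drives entry into DNA synthesis (chr10:128705002-128705301, minus strand).
Robo4: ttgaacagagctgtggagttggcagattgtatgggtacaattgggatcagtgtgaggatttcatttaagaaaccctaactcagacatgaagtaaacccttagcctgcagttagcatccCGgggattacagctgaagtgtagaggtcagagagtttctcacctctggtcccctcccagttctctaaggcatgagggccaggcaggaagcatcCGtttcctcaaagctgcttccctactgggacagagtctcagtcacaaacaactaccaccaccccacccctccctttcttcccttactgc
Clec4g: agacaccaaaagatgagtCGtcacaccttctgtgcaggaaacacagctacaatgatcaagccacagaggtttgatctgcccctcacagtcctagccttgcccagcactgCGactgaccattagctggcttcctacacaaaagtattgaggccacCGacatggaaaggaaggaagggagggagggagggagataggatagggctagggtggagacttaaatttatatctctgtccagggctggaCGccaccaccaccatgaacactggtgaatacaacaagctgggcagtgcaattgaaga
Elk3: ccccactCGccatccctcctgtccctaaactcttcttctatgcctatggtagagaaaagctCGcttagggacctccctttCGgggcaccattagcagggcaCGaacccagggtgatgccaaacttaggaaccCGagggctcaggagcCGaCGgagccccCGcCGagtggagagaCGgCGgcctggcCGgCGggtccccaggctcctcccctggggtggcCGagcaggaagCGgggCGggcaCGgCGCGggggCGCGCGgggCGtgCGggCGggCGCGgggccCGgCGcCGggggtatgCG
Sparc: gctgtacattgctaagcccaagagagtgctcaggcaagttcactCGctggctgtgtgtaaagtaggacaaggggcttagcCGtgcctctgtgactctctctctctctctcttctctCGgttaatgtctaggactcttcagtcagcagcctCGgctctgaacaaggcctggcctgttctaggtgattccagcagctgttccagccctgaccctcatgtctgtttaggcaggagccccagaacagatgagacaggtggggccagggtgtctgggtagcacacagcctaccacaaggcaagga
Mpeg1: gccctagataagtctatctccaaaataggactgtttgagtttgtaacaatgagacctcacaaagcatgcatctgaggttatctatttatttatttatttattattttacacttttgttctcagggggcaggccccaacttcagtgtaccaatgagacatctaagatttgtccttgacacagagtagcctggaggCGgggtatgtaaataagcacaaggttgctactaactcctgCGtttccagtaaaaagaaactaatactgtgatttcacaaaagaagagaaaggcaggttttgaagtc
Cdk2: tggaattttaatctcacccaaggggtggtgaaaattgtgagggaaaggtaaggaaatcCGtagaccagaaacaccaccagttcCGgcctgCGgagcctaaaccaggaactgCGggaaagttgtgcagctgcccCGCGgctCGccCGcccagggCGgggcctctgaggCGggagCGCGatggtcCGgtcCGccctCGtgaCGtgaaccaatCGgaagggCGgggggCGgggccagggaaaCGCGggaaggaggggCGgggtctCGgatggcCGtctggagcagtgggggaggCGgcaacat

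The windows of Robo4 and Mpeg1 held 2 CG dinucleotides each and those of Clec4g and Sparc 4 each, against 31 in Elk3 and 25 in Cdk2. Their ratio of observed to expected CG was 0.106 for Robo4, 0.176 for Mpeg1, 0.206 for Clec4g and 0.174 for Sparc. It was 0.816 for Elk3 and 0.84 for Cdk2.

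A pair of interferon-induced genes is shown in the same way, with capitals marking the letters GAAA, a pair of bases of any kind and GAAA on either strand, a core that interferon regulatory factors bind. Rsad2 encodes the antiviral enzyme viperin (chr12:26456403-26456702, minus strand), and Ifit1 encodes an RNA-binding antiviral protein (chr19:34640639-34640938, plus strand).
Rsad2: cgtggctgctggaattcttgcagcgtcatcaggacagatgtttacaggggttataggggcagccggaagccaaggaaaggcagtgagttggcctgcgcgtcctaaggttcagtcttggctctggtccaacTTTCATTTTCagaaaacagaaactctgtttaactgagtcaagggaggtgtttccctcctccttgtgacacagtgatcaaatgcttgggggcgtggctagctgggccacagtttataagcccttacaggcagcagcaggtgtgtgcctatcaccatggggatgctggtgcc
Ifit1: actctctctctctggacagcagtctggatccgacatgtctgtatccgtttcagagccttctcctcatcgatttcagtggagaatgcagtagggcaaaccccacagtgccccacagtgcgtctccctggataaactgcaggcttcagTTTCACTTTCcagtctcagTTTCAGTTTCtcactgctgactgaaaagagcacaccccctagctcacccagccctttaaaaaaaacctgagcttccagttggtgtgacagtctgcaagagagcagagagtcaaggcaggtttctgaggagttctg

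The window of Rsad2 held 1 match and that of Ifit1 held 2. A match describes letters in the reference window and not a bound site.

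The promoter regions without a sham region were of intermediate width. Their median width was 12026 bp (quartiles 9182 and 15973 bp, range 3703 to 56873 bp), against 16744 bp (quartiles 10579 and 27600 bp) for the 6320 other promoter regions of the PHx list, a ratio of 0.718. Promoter regions found only in the sham list were narrower still, with a median of 5716 bp (quartiles 4550 and 7445 bp), so that the PHx-only regions were 2.1 times as wide. The lists also differed in width as a whole, so this ratio is not particular to the members. By autosome, the median was 13416 to 17341 bp for all PHx promoter regions. It was 7580 to 8632 bp for all sham regions, promoter or not. The 95% order-statistic interval of the members' median, 11672 to 12322 bp, covers the spread over regions only. Each width is the union of the peaks of both libraries, so broader peaks in either library give a wider region.

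**Figure D1:**
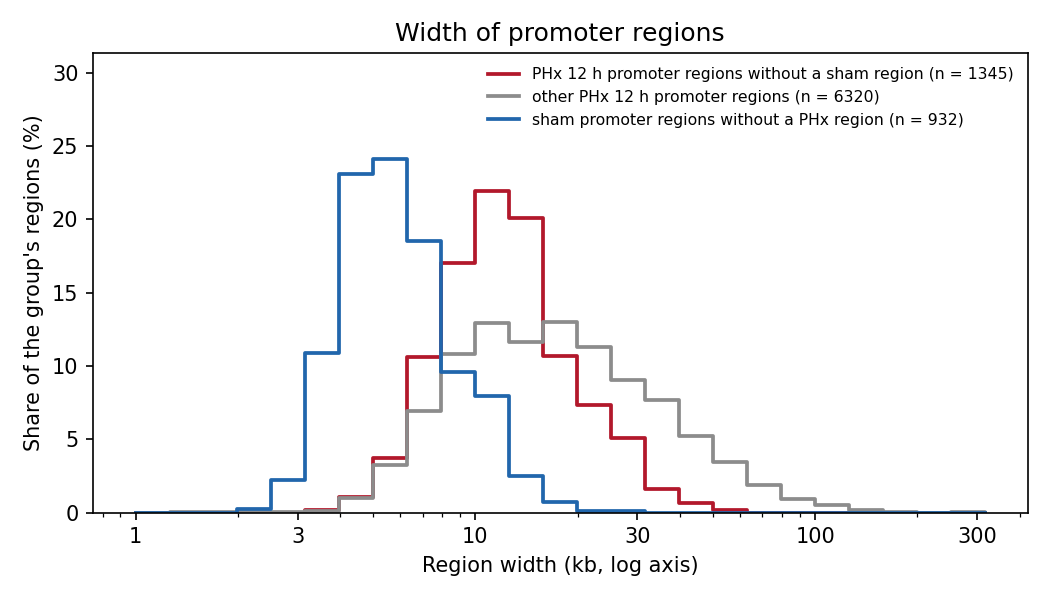
Share of regions in each width bin (y axis, %) against region width in kb on a log axis, for the 1345 PHx promoter regions without a sham region (red), the 6320 other PHx promoter regions (grey) and the 932 promoter regions found only in sham (blue). The red curve, with a median of 12026 bp, lies between the blue and the grey ones and lacks the long right tail of the grey one.

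When all PHx promoter regions were ranked by width and split into 10 equal groups, members made up 20.9% of the narrowest decile and between 25.6% and 27.1% of the next 4 deciles. Their share was 17.8% and 11.6% in the 2 deciles after these, then 12.0% and 6.14%. It was 1.17% in the widest decile. By construction, a wide region covers more sequence in which a base can be shared with a sham region.

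**Figure D2:**
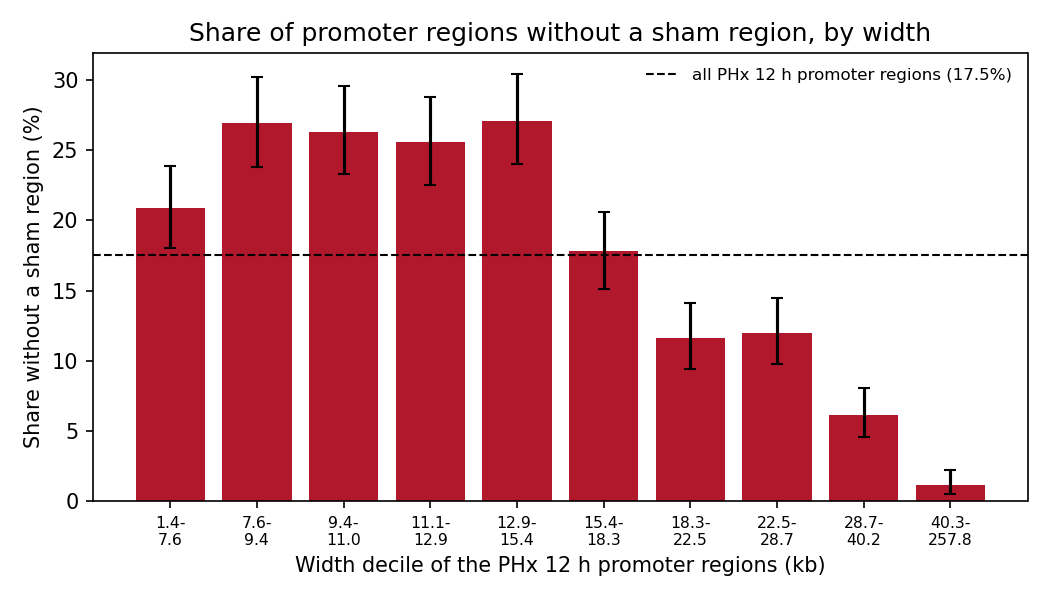
Share of PHx promoter regions without a sham region (y axis, %) in each width decile of the PHx promoter regions (x axis, width limits in kb), with 95% Clopper-Pearson intervals that cover counting error only. The dashed line marks the 17.5% over all promoter regions. The bars stay between 20.9% and 27.1% in the 5 narrowest deciles and drop to 1.17% in the widest.

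Most of these regions sat on the start site. The start site of the assigned gene lay inside 1217 of the 1345 regions (90.5%, exact binomial 95% interval 88.8% to 92.0%), against 97.1% of the other PHx promoter regions and 89.6% of the sham-only ones. The authors' class of promoter within 1 kb held 1272 of them, the class from 1 to 2 kb held 35 and that from 2 to 3 kb held 38. Where the start site lay inside, the region reached a median of 4441 bp upstream and 6459 bp downstream of it. Of these regions 61.2% reached farther into the gene than upstream, against 61.2% of the other PHx promoter regions and 66.3% of the sham-only ones. The other PHx promoter regions reached a median of 5688 bp upstream and 8298 bp downstream, and the sham-only ones 2209 bp and 3126 bp.

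The regions were mostly single peaks. In 1268 of them (94.3%), 1 peak of library 1 and 1 peak of library 2 were joined, against 79.0% of the other PHx promoter regions. More than 1 peak of library 2 was joined in 69 regions (5.13%), and more than 1 peak of library 1 in 9 regions (0.669%). The whole assigned transcript lay inside the region in 22.8% of members, against 31.9% of the other PHx promoter regions.

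The 12 widest regions with a protein-coding gene were led by Tns3 with 48724 bp, a tensin that links integrins to actin. Ehd4, of the endocytic recycling EHD family, followed with 47690 bp. Mcc, a gene mutated in colorectal cancer, had 46650 bp, and Med9, a subunit of the Mediator complex, had 44631 bp. Oacyl had 43405 bp, Cabyr 43165 bp, Ankrd44 40132 bp and Prkch, a protein kinase C, 39491 bp. Ehd3, a second EHD gene and known in kidney and liver endothelium, had 38791 bp. Garre1 had 36059 bp, the semaphorin gene Sema6d 35333 bp and Engase, an endoglycosidase, 35183 bp. Tns3, Mcc and Ankrd44 also had a promoter region elsewhere in the gene that overlapped sham regions. The 5 narrowest protein-coding ones were Stam (4416 bp), Hipk3 (4093 bp), Zfp397 (4068 bp), 2300009A05Rik (4067 bp) and Dop1a (3703 bp). The widest of all, at 56873 and 52109 bp, were assigned to the long noncoding RNA genes Gm34648 and Gm11201.

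The distance to the nearest sham region had a median of 35012 bp (quartiles 12900 and 98260 bp). It was at most 1 kb for 20 regions (1.49%), at most 10 kb for 264 (19.6%), at most 100 kb for 75.8% and at most 1 Mb for 98.3%. Just inside the limit of no shared base stood AA465934 at 95 bp from a sham region, Trcg1 at 128 bp, Gm38529 at 129 bp, Mir101a at 158 bp and Gm46362 at 228 bp. Just outside it stood Wdfy3, which shared 797 bp with sham regions, Rph3al with 1620 bp, Vti1b with 2086 bp, Mastl with 2125 bp and Ttc14 with 2130 bp. The farthest from any sham region were Phka2 (9902586 bp), Gm39547 (9535179 bp), Zdhhc9 (3949759 bp), Gm32498 (2963975 bp) and Tbl1x (2373310 bp). All of these but Gm32498 were on the X chromosome.

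Absence from the merged sham list did not show that single sham libraries had no peak there. Peak numbers of each library run in genomic order, so that numbers missing between the sham regions on either side of a member count peaks of that sham library outside the merged list. Such numbers could be counted for 1342 members, for 8 of them across a chromosome end to the first or last sham region of the next chromosome, and not for the 3 that lay beyond the last sham region of the X chromosome. Of the 1342, 416 (31.0%) had no such unused number of sham library 1 and 300 (22.4%) none of sham library 2. Only 72 (5.37%) had none of either, and 698 (52.0%) had unused numbers of both. The stretch between the flanking sham regions was 228751 bp long in the median, so an unused peak need not have lain at the promoter itself.

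Protein-coding genes made up 861 of the 1345 assignments (64.0%), against 70.7% of the other PHx promoter regions. Long noncoding RNA genes made up 350 (26.0%), against 22.3%. A further 18 regions (1.34%) were assigned to microRNA genes, 12 (0.892%) to small nucleolar RNA genes and 13 (0.967%) to small nuclear RNA genes. Pseudogenes took 45 (3.35%), and 42 names (3.12%) found no match in the RefSeq gene table. Among the other PHx promoter regions these shares were, in the same order, 1.17%, 0.712%, 0.443%, 2.56% and 1.82%. Each region carries 1 assigned gene, so a short RNA gene can stand for a region that also covers the start of a longer gene nearby.

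Genes were then read by function with 47 gene lists, which held 409 of the 1345 regions. The lists overlap, and the share of a list's PHx promoter regions that had no sham region is set beside the 17.5% over all promoter regions. These shares come from the contrast that chose the regions and are descriptions without a test. The share was above 17.5% for 23 lists. Their median widths are read beside the 12026 bp of all members.

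**Figure D3:**
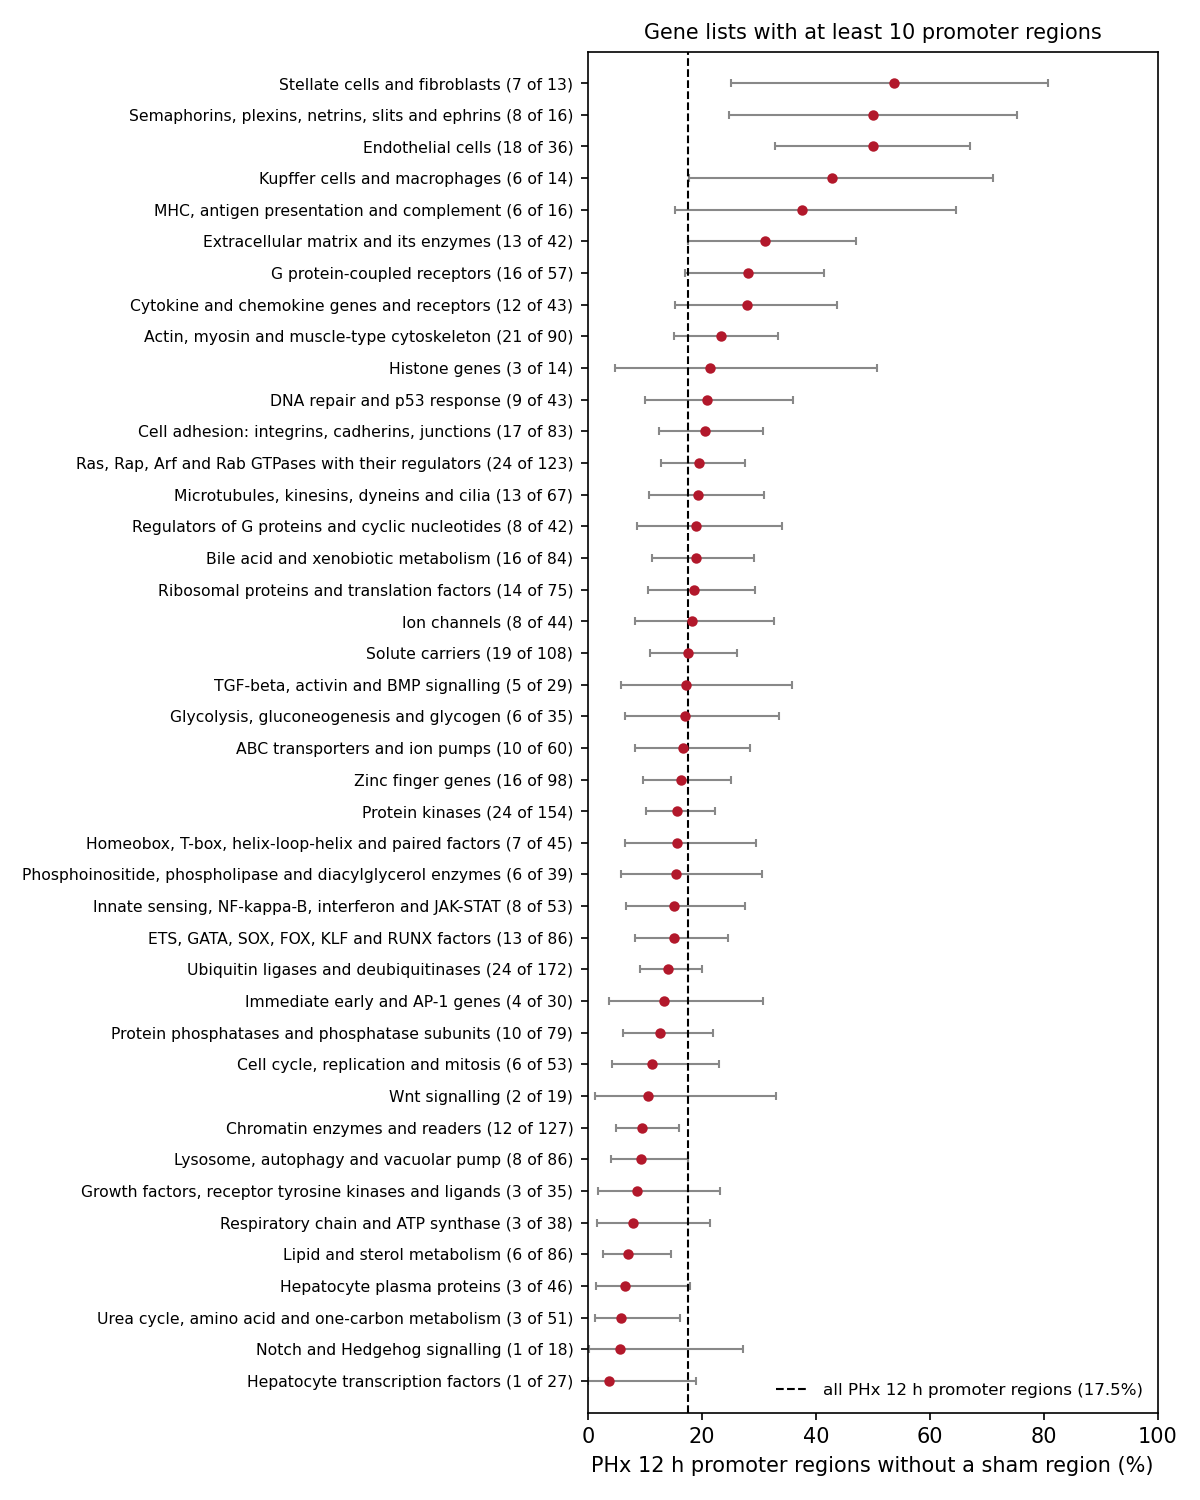
Share of the PHx promoter regions of each gene list that had no sham region (x axis, %), for the lists reported here with at least 10 promoter regions, with the counts in the labels and exact binomial 95% intervals that cover counting error only. The dashed line marks the 17.5% over all promoter regions. With 1 assigned gene per region, lists of stellate, endothelial and Kupffer cell genes and of semaphorins and their receptors stand at the top, between 42.9% and 53.8%, and hepatocyte transcription factors at the bottom, at 3.7%.

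Genes of liver endothelium had 36 promoter regions in the PHx list, of which 18 (50%, interval 32.9% to 67.1%) had no sham region. The same list had 25 promoter regions in sham, of which 2 had no PHx region. The median width of the 18 was 15184 bp, against 21558 bp for the list's other PHx promoter regions. The 18 regions belonged to 17 genes, since Tm4sf1 had a pair of them, of 15921 and 7145 bp. Each of the 18 lay in a stretch with unused peak numbers of 1 or both sham libraries. Such stretches were usual among all members, of which only 72 of 1342 (5.37%) had no unused number of either library. This count therefore does not set the 18 apart.

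Among them, the regions of transcription factor genes were those of Erg (31257 bp on chromosome 16), an ETS factor that maintains endothelial identity, Elk3 (25328 bp on chromosome 10) and Gata4 (15670 bp on chromosome 14), which directs the sinusoidal type of endothelium. The Erg region was 192587 bp away from any sham region, and that of Elk3 12285 bp. Gata4 also had a promoter region of 33995 bp at a start site 25862 bp downstream, which overlapped sham, so 1 of its promoter regions was found after PHx alone and another in both groups.

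Regions of junction and surface genes included Pecam1 (21591 bp), which encodes the adhesion protein CD31, and Cdh5 (14699 bp), which encodes VE-cadherin. Adgrf5 (23973 bp), an adhesion G protein-coupled receptor, had its nearest sham region 24904 bp away, assigned to the same gene, and Pecam1 likewise at 21238 bp. Fgd5, an activator of Cdc42, had 27684 bp, of which 20293 bp lay upstream of the start site. Ehd3 reached 35313 bp downstream. Bmp2, which sinusoidal endothelium makes to set hepcidin in hepatocytes, had 16919 bp on both sides of its start site. Narrower regions marked Plvap (13610 bp), which forms the diaphragms of fenestrae, Cd93 (12230 bp), Clec4g (10366 bp) and Robo4 (8717 bp), with the sequences of the last 2 printed above.

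Defining markers of liver cell types, of which those with a member region are all on the gene lists, were counted in the same way. Of 14 endothelial markers, 10 had a PHx promoter region, 8 had a region without a sham counterpart and 2 had a sham promoter region. The latter were the sinusoidal markers Lyve1 and Stab2, which had a promoter region in both lists. Kdr, Tek, Stab1 and Vwf had none in either list. The 8 with a member region are among the genes of the endothelial list above, so that this count is no separate evidence. Of 10 hepatocyte markers, 6 had a PHx promoter region, 1 had such a member region and 5 had a sham promoter region. Of 13 stellate and fibroblast markers, 4 had a PHx promoter region and 2 a member (Bgn and Sparc), and of 10 Kupffer cell and macrophage markers 5 and 1 (Mpeg1). The PHx promoter regions of Colec11 and Ecm1, and of the macrophage markers Csf1r, Cd68, C1qa and Cd14, overlapped sham regions. No promoter region in either list was assigned to the stellate and fibroblast markers Col1a1, Col1a2, Col3a1, Des, Lrat, Reln, Pdgfrb, Acta2 and Tagln. The Kupffer cell markers Adgre1, Clec4f, Marco, Timd4 and Vsig4 had none either. Of 10 lymphocyte and of 6 cholangiocyte markers, 1 each had a PHx promoter region and none was a member. The 8 markers of neutrophils and monocytes and the 8 of other tissues had no promoter region in either list. Nuclei were not sorted, and the part of cell composition in these counts was not tested.

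Genes of stellate cells and fibroblasts had 13 PHx promoter regions, of which 7 (53.8%, interval 25.1% to 80.8%) had no sham region, and 6 promoter regions in sham, all of which overlapped a PHx region. The proteoglycan gene Bgn had 22983 bp, 19320 bp of it upstream, and lies on the X chromosome. The contractile genes Mylk (20857 bp), the myosin light chain kinase, and Tpm2 (15266 bp), a tropomyosin, came next. Mylk had another promoter region of 32864 bp that overlapped sham, 39751 bp downstream of this start site. Cygb, the cytoglobin of stellate cells, had 14907 bp, and Sparc had 12785 bp, nearly all downstream of its start site (12080 bp). Bambi, a decoy receptor for TGF-beta, had 12390 bp, and Timp2, an inhibitor of matrix metalloproteinases, had 9193 bp that lay wholly upstream of its start site.

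Kupffer cell and macrophage genes had 14 PHx promoter regions, 6 of them members (42.9%, interval 17.7% to 71.1%), and 11 promoter regions in sham, all overlapping a PHx region. Another count took each gene assigned to any PHx or sham region at its most upstream listed start site alone. Of 20 Kupffer cell and macrophage genes with that site inside a PHx promoter region, 5 (25%) had it inside a member. Over all genes counted so, the share was 14.0%. A member at a start site farther downstream was not counted this way. The members were Zeb2 (26192 bp), a repressor that maintains tissue macrophages, Lcp1 (23870 bp), an actin bundler of leukocytes, Siglec1 (18472 bp), a sialic acid receptor, Ly86 (14412 bp), a partner of a Toll-like receptor homologue, Pld4 (13336 bp), a lysosomal nuclease, and Mpeg1 (11495 bp). The Lcp1 region had a sham region of the same gene 29005 bp away. Ly86 alone of the 6 lay in a stretch without unused peak numbers of either sham library. Of lymphocyte genes, Blk (15493 bp) and Cd52 (15187 bp) were members, 2 of 8, and of cholangiocyte genes Elf3 (10656 bp), 1 of 4. The longer list of neutrophil and monocyte genes had no PHx promoter region assigned and 2 sham ones, both of which overlapped a PHx region. By start sites, 2 of its genes lay inside a PHx promoter region assigned to another gene, and 0 inside a member.

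**Figure D4:**
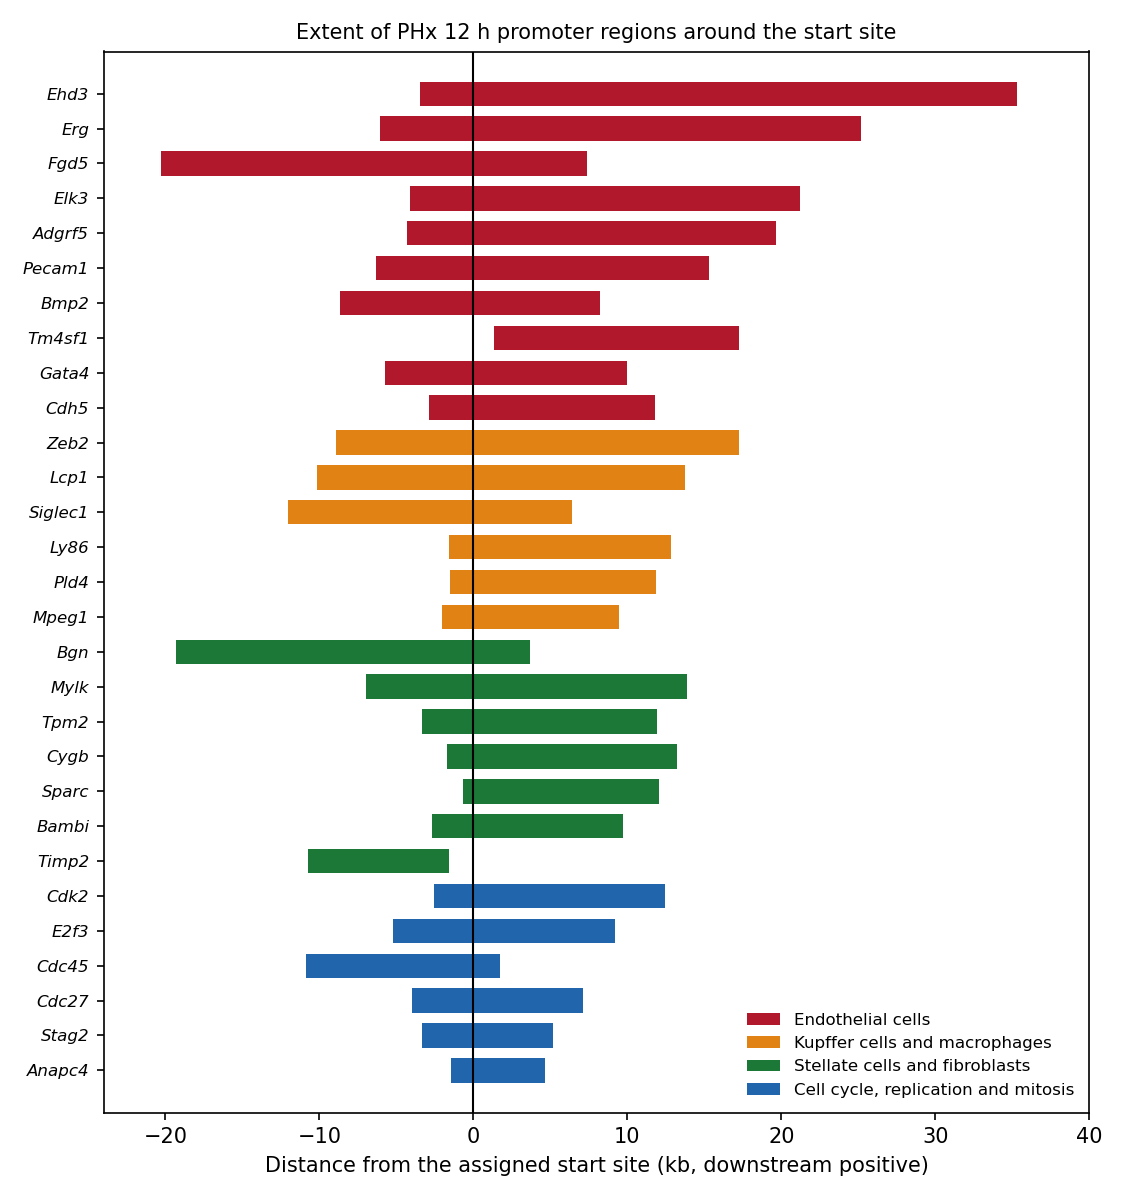
Extent of each region around the assigned start site (x axis, kb, downstream positive, vertical line at the start site), for the 10 widest endothelial members and for all members of the Kupffer cell, stellate cell and cell cycle lists, in colour by list. Ehd3 reaches farthest downstream (35313 bp) and Fgd5 farthest upstream (20293 bp), while the wider Tm4sf1 region and the Timp2 region do not cover the start site.

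Genes of cell guidance and matrix were next. Semaphorins, plexins, netrin receptors, slits and ephrins had 16 PHx promoter regions, 8 of them members (50%, interval 24.7% to 75.3%). The semaphorins Sema6d (35333 bp), Sema4d (27024 bp), Sema6c (20068 bp) and Sema6a (12574 bp) were among them, with Dpysl2 (26783 bp), a collapsin response mediator, the netrin receptor gene Unc5b (11310 bp), Robo4 and Rtn4 (7929 bp). The Sema6a region lay beside a second promoter region of 52613 bp of the same gene that overlapped sham. The median width of these 8 was 16321 bp, against 36742 bp for the other 8 regions of the list.

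Extracellular matrix genes and their enzymes had 13 members of 42 promoter regions (31.0%, interval 17.6% to 47.1%). The basement membrane genes Nid2 (31860 bp), Col4a1 (26984 bp) and Lamb3 (16684 bp) were members, as was Comp (28085 bp), a cartilage matrix protein. The Col4a1 region lay 1517 bp from a sham region. Col13a1, a transmembrane collagen, had a pair of regions of 23179 and 12202 bp, and Col16a1 had 13739 bp. Serpinh1 (9238 bp), the collagen chaperone, Adamts10 (9726 bp) and Adam9 (6518 bp) were narrower.

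Cell adhesion genes had 17 members of 83 promoter regions (20.5%), close to the share over all regions. Beside Tns3, Pecam1 and Cdh5 they included Afdn (33567 bp), an adaptor of nectin junctions, Vcam1 (17250 bp), the adhesion ligand that endothelium shows to leukocytes, Gja4 (16959 bp), a connexin of arteries, and Cldn4 (14036 bp), a claudin. Of the cytoskeletal lists, actin and myosin genes had 21 members of 90 (23.3%), led by Csrp1 (26399 bp), Cttnbp2nl (25663 bp) and Lcp1. Microtubule genes had 13 of 67 (19.4%), led by the kinesin gene Kif26a (29852 bp). Ras, Rab and Arf genes had 24 of 123 (19.5%), or 16 of 126 (12.7%) by start sites inside, led by Rin3 (26571 bp) and Rab44 (26444 bp). Csrp1 and Rin3 had a further promoter region that overlapped sham.

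Immune signalling genes were counted in separate lists. Cytokine and chemokine genes and receptors had 12 members of 43 promoter regions (27.9%, interval 15.3% to 43.7%), while genes of innate sensing and interferon had 8 of 53 (15.1%, interval 6.75% to 27.6%). These intervals overlap, and each spans the 17.5% of all promoter regions. The interleukin-1 receptor gene Il1r1 had the widest of the first list (33718 bp), and its other start site, 44049 bp upstream, lay inside a sham region. Il1rn, the natural antagonist of that receptor, had a pair of regions of 18103 and 7033 bp, 432089 bp and 452542 bp from the nearest sham region. The chemokine receptor gene Cxcr6 had 23538 bp and Il17ra 21884 bp. Cytokines of the interleukin-6 family were Lif (14105 bp) and Clcf1 (13745 bp), and Osmr, which encodes a receptor subunit for oncostatin M, had 7385 bp. Il10rb had 14295 bp and Tnfsf14 12101 bp.

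Of the interferon genes, Irgm2 (19426 bp), Ifih1 (18118 bp), a sensor of viral RNA, Rsad2 (14387 bp), Ifit2 (10578 bp), Ifit1 (9081 bp) and Oasl2 (6847 bp) were members. Tyk2 (18961 bp), a Janus kinase, and Pycard (12012 bp), an inflammasome adaptor, completed the 8. Rsad2 lay 8708 bp from a sham region assigned to Cmpk2. Antigen presentation and complement genes had 6 members of 16 (37.5%, interval 15.2% to 64.6%), among them Ciita (20661 bp), the master activator of MHC class II genes, C5ar2 (14088 bp), C2 (11347 bp) and Cd1d1 (4517 bp). G protein-coupled receptor genes had 16 of 57 (28.1%, interval 17.0% to 41.5%), led by Adgra2 (30570 bp), Cmklr1 (28242 bp), the chemerin receptor, and Adgrf5, with the purinergic receptor P2ry13 (14989 bp) also present.

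The hepatocyte lists of plasma proteins, of transcription factors and of urea cycle, amino acid and one-carbon metabolism held few members. Plasma protein genes had 3 of 46 promoter regions (6.52%, interval 1.37% to 17.9%), among them Apcs (13624 bp), which encodes the acute phase protein serum amyloid P. None of the 52 sham promoter regions of that list lacked a PHx region. Hepatocyte transcription factor genes had 1 of 27 (3.7%), and that was Gata4, which is also on the endothelial list. Urea cycle, amino acid and one-carbon genes had 3 of 51 (5.88%): Cps1 (29267 bp), the first enzyme of the urea cycle, Mthfd1l (12169 bp) and Hibadh (6392 bp). The Cps1 region lay 2873 bp from a sham region assigned to Cps1 itself.

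Lipid and sterol genes had 6 members of 86 (6.98%, interval 2.6% to 14.6%), with Lpcat1 (23483 bp) and Hsd17b13 (21120 bp), a lipid droplet protein, the widest and Sqle (12666 bp), squalene epoxidase of cholesterol synthesis, among them. Glycolysis and glycogen genes had 6 of 35 (17.1%), among them Hk1 (13150 bp) and Hk3 (12971 bp), the hexokinases of other tissues than the hepatocyte, Pgk1 (10636 bp) and Pdk4 (5207 bp). Bile acid and xenobiotic genes had 16 of 84 (19%, interval 11.3% to 29.1%), near the 17.5% of all promoter regions. These included Aldh1b1 (24717 bp), Akr1c14 (22345 bp), Cyp2c23 (19231 bp), Gstm3 (13941 bp), Akr1c6 (12952 bp) and Cyp4a14 (10869 bp), and Adh6b with a pair of regions of 25033 and 11086 bp. Members of these tandem gene families resemble each other, so reads of near-identical copies may have been placed at either copy.

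Genes of growth control had shares below or near the 17.5% of all promoter regions. Immediate early genes had 4 of 30 (13.3%): Arc (14925 bp), Dusp5 (13177 bp), a phosphatase of ERK, Nr4a3 (11561 bp), an orphan nuclear receptor, and Ccn2 (10349 bp), a target of YAP. Growth factors and their receptors had 3 of 35 (8.57%), or 5.56% by start sites inside: Pdgfc (22014 bp), Nrg4 (12790 bp) and Erbb4 (6826 bp), which encodes a receptor of Nrg4. The Nrg4 region lay wholly upstream of its start site, and the Erbb4 region lay 1998965 bp from any sham region. TGF-beta, activin and BMP genes had 5 of 29 (17.2%): Acvr2a (20365 bp), an activin receptor, Bmp2, Fst (12989 bp), the activin inhibitor follistatin, Bambi and Tgfbi (11625 bp). The Wnt list had 2 of 19 (10.5%), Gsk3b (18074 bp) and Fzd1 (8713 bp), or 1 of 29 (3.45%) by start sites inside, and the Notch and Hedgehog list 1 of 18 (5.56%), Rbpj (7468 bp).

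Cell cycle genes had 6 members of 53 (11.3%, interval 4.27% to 23.0%). Those of the G1 to S phase transition were Cdk2 (14988 bp, 15967 bp from a sham region), E2f3 (14436 bp) and Cdc45 (12602 bp), a component of the replicative helicase. E2f3 had another promoter region of 16890 bp that overlapped sham, 37334 bp upstream. The mitotic ones were Cdc27 (11131 bp) and Anapc4 (6122 bp), subunits of the anaphase-promoting complex, and Stag2 (8491 bp), a cohesin subunit. DNA repair genes had 9 of 43 (20.9%), among them Gtse1 (22048 bp), Bard1 (10852 bp), the partner of Brca1, and Nbn (10588 bp). The sham list had 16 promoter regions of repair genes without a PHx region, of 53. Histone genes had 3 of 14 (21.4%): H2aw (8727 bp), H2ac20 (7685 bp) and H2ac18 (5575 bp).

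The authors' table named a transcription factor family for 48 of the 1345 regions (3.57%), against 4.84% of the other PHx promoter regions. Zinc finger C2H2 genes gave 16 of 85 (18.8%), ETS genes 3 of 15, homeobox genes 3 of 17, basic helix-loop-helix genes 3 of 27 and GATA genes 2 of 11. Of promoter regions of basic leucine zipper genes 0 of 29 were members, and of those of forkhead genes 1 of 22. Over all PHx promoter regions 17.5% were members. Most of these families held few regions, and their counts were not tested. In the gene lists, homeobox, helix-loop-helix and related factors had 7 members of 45 (15.6%), or 4 of 47 (8.51%) by start sites inside, of which the widest were Hoxb3 (29278 bp), Zeb2, Pknox2 (19957 bp) and Tcf4, with a pair of regions of 12109 and 10270 bp. ETS, GATA, SOX and related factors had 13 of 86 (15.1%), of which the widest were Erg, Elk3, Sox6 (17866 and 13539 bp), Lmo4 (15900 bp), Gata4, Esrrb (14116 bp), Gata2 (12050 bp) and Nr4a3. Tcf4 and Sox6 each had a further promoter region that overlapped sham. Genes of chromatin enzymes and readers had 12 members of 127 (9.45%, interval 4.98% to 15.9%), among them Sin3b (27918 bp), a corepressor, the deacetylase gene Hdac4 (21312 bp), Uhrf1 (17334 bp), which maintains DNA methylation, and the acetyltransferase gene Crebbp (10891 bp). Hdac4 had another promoter region, 64561 bp upstream, that overlapped sham.

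In the remaining lists, protein kinases had 24 members of 154 (15.6%), with Prkch and the Src-family gene Fyn (23683 bp) the widest. Solute carriers had 19 of 108 (17.6%), led by Slc31a2 (29405 bp), and ABC transporters and pumps 10 of 60 (16.7%), led by Atp2c1 (18206 bp). Ion channel genes had 8 of 44 (18.2%), a count that includes the noncoding RNA gene Kcnq1ot1 (26131 bp). Ubiquitin ligases and deubiquitinases had 24 of 172 (14.0%), led by Fbxw7 (23655 bp), a substrate receptor for cyclin E. Ribosomal protein and translation genes had 14 of 75 (18.7%) with a median width of 7798 bp. Genes of lysosome and autophagy had 8 of 86 (9.3%), led by the cathepsin gene Ctsc (23727 bp), and respiratory chain genes 3 of 38 (7.89%). Protein phosphatases had 10 of 79 (12.7%), zinc finger genes 16 of 98 (16.3%) and phosphoinositide enzymes 6 of 39 (15.4%), or 5 of 51 (9.8%) by start sites inside. Regulators of G proteins had 8 of 42 (19%), and neuronal genes 2 of 5. Some lists were drawn by name patterns that also took in unrelated genes, such as the ubiquitin ligase gene Mylip among actin genes, the palmitoyltransferase genes Zdhhc13 and Zdhhc9 among zinc fingers, Tmem167 among channels and the pseudogene Cyp4f41-ps among xenobiotic genes.

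The gene ontology terms in the authors' table gave a second view, over the 5085 promoter regions with a term, of which 823 were members (16.2%). The terms shown were chosen after the tables were seen. Members were 16 of 38 regions for phagocytic vesicle (42.1%), 26 of 97 for angiogenesis (26.8%), 39 of 146 for cell adhesion (26.7%) and 21 of 81 for collagen-containing extracellular matrix (25.9%). They were 21 of 244 for lipid metabolic process (8.61%) and 2 of 52 for mitochondrial matrix (3.85%). Nearer to the 16.2% were mitochondrion with 87 of 665 (13.1%), cytosol (13.5%), nucleus (14.5%), endoplasmic reticulum (15%), extracellular space (17.6%), plasma membrane (19%) and cell surface (21.8%).

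The X chromosome had the highest share. Of its 44 PHx promoter regions, 23 (52.3%, interval 36.7% to 67.5%) had no sham region, against 17.4% over the autosomes, which ranged from 12.5% on chromosome 19 to 22.3% on chromosome 13. Of 24 promoter regions in sham on the X chromosome, 4 had no PHx region. The X chromosome held 50 regions, or 0.492% of the PHx list, and 30 regions, or 0.259% of the sham list. The PHx-only regions there belonged to genes of many functions. Flna (12665 bp) encodes filamin, Pgk1 the glycolytic phosphoglycerate kinase, Kdm5c (15878 bp) a histone demethylase and Phka2 (7230 bp) the liver subunit of phosphorylase kinase. Acsl4 (10921 bp) activates arachidonic acid, Bcor (14204 bp) is a corepressor and Il13ra1 (6159 bp) a cytokine receptor, and Bcor had a further promoter region of 22107 bp that overlapped sham. Jpx (13803 bp) encodes a noncoding RNA of the X inactivation centre, and Kdm5c and Ddx3x (5993 bp) are known to escape X inactivation. The sex of the mice is not in the labels, and its part in these counts was not tested.

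**Figure D5:**
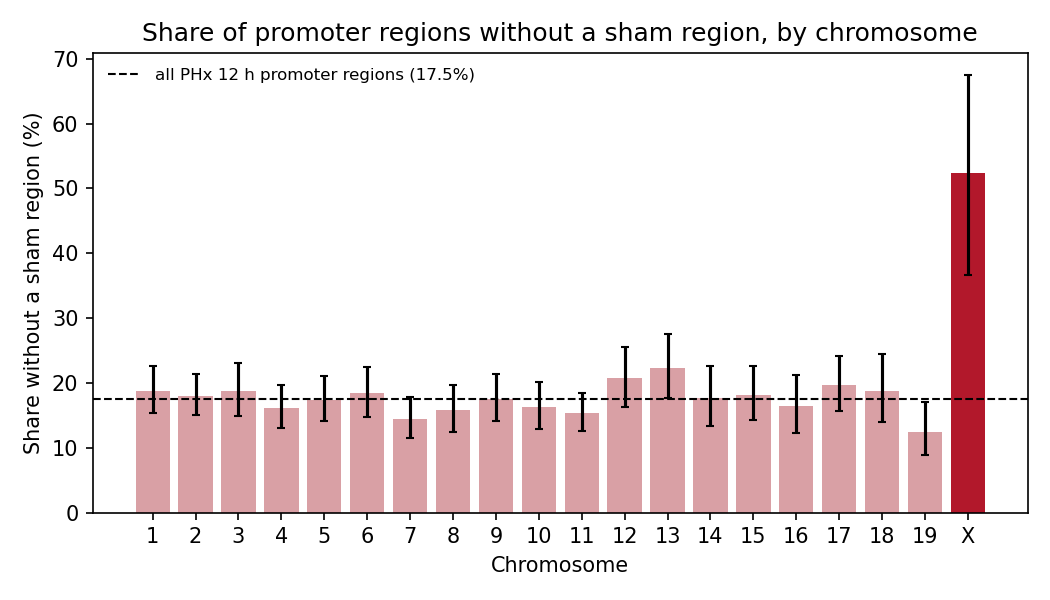
Share of PHx promoter regions without a sham region (y axis, %) on each chromosome (x axis), with exact binomial 95% intervals that cover counting error only and a dashed line at the 17.5% over all promoter regions. The X chromosome stands at 52.3%, against 12.5% to 22.3% on the autosomes.

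For 99 of the 1323 genes (7.48%), the PHx list held another promoter region of the same gene that overlapped sham, and 112 (8.47%) had a promoter region in the sham list. For 78 genes and 81 member regions both start sites lay inside their regions, and these sites were 39610 bp apart in the median. The start site of the region that overlapped sham lay upstream in 38 of these cases and downstream in 43, and a sham region covered that start site in 64 of the 81. The median width was 14159 bp for the PHx-only region and 18269 bp for the other, and the PHx-only region was the narrower in 49. Fyn had 3 PHx-only regions, of 23683, 12979 and 10799 bp, and 20 other genes had a pair. Abl2 had 14290 and 7860 bp, Wipf1 15622 and 13295 bp, and Slc4a4 17991 and 6296 bp, and Wipf1 and Slc4a4 had a further promoter region that overlapped sham.

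Members that followed each other without any other listed PHx region between them formed runs. A total of 966 stood alone, 141 runs held 2, 28 held 3, 2 held 4 and 1 held 5. Members were 1345 of the 10170 regions of the PHx list, and a share of this size gives runs by itself. Whether the members lay closer together than that was not tested. The longest lay on chromosome 13 from 4093273 to 5857655 (GRCm39) and ran through Akr1c14, Akr1c19, Gm9973, Akr1c6 and Gm35413, of which 3 encode aldo-keto reductases of steroid and xenobiotic metabolism. A run of 4 on chromosome 10 held both Col13a1 regions, Mir7662 and Hk1, and the other, on chromosome 5, ended with Sepsecs and Anapc4.

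The promoter windows of the genes were compared by base composition. A total of 683 of the 1323 genes, and 3483 of the 6109 genes of the other PHx promoter regions, had a single RefSeq start site. A window was called CpG-rich at a GC content of at least 50% and an observed to expected CG ratio of at least 0.6. This held for 347 of the 683 windows (50.8%, interval 47.0% to 54.6%), for 61.9% of the 3483 (interval 60.3% to 63.5%) and for 33.4% of all 22862 RefSeq genes with 1 start site. The median CG ratio was 0.649 among members, 0.734 among the other PHx genes and 0.374 among all genes. Robo4, Clec4g, Sparc, Mpeg1, Rsad2 and Ifit1 belong to the CpG-poor part, and Elk3 and Cdk2 to the CpG-rich part. Of the 8 ribosomal protein and translation genes with a window all were CpG-rich, and of 9 xenobiotic genes 1 was.

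Motifs were searched in the same windows on both strands. The GC box GGGCGG stood in 49.6% of the members' windows, 60.5% of those of the other PHx genes and 35.2% of all windows. The E-box CACGTG stood in 6.3%, against 10% and 7.12%. The TATA box TATAAA stood in 11.7%, against 8.41% and 14.8%. The CCAAT box CCAAT was found in 34.8%, against 38.1% and 38.2%, and the ETS motif CCGGAAGT in 4.69%, against 6.17% and 3.95%. The AP-1 motif TGACTCA was found in 3.95%, against 4.48% and 5.17%, the cyclic AMP element TGACGTCA in 2.49%, against 2.87% and 1.85%, and the STAT motif TTCCNGGAA in 1.32%, against 1.38% and 1.17%. The forkhead motif TGTTTAC was found in 2.93%, against 2.87% and 3.56%. The interferon regulatory factor motif printed above for Rsad2 and Ifit1, added after the region lists were seen, stood in 29 of the 683 windows (4.25%, interval 2.86% to 6.04%), against 2.7% (interval 2.19% to 3.29%) and 3.58%. The GC box itself holds a CG, its relation to the CpG content of the windows was not tested, and none of the motifs shows binding.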

How the data were processed

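H3K27ac was profiled by CUT&Tag in liver from 2 PHx and 2 sham libraries. The authors deposited 1 table of regions per group, and per the file headers its values are positions and widths in bp, an annotation class, the assigned gene, its transcription factor family and ontology terms, and the peaks of each library joined into the region. Bowtie2, SEACR, DiffBind and ChIPseeker, and the build GRCm39 (mm39), are listed in the submitters' processing notes without versions or roles. No source used here gives the peak thresholds. A peak found in 1 library alone is not listed, and depth is unknown.

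Regions of both lists were intersected (1 shared base) in Python 3.11.15 with pandas 2.3.3, and the count was checked with bedtools 2.31.1 and the intersection tested on simulated data. Distances run from the authors' start site of the assigned gene. Shares carry Clopper-Pearson 95% intervals (scipy 1.17.1) for counting error alone. Biotypes and promoter windows came from RefSeq GRCm38.p6 by gene name. No test, and no comparison of libraries, was made.

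The members and the gene lists were chosen with earlier results of these data known. Named genes are the 12 widest and 5 narrowest protein-coding members, list members in order of width (markers and X-linked genes also where they are narrower), those nearest to and farthest from the sham limit, and the largest runs. Alternatives changed the overlap rule, the promoter class, the width limit, the use of unused sham peak numbers, the unit counted in the lists and the way genes were assigned. The values of some genes and of 1 gene list are not reported here.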

Additional observations from a re-analysis of the deposited data

How the results depend on the processing

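Of the alternatives to the rule, letting a gap of up to 1 kb or 10 kb count as shared left 1325 and 1081 regions, and the class within 1 kb of a start site left 1272. Without the X chromosome, an alternative added after the data were seen, 1322 remained. Counting as shared only regions with reciprocal overlap of 50% gave 3750 regions with a median width of 18258 bp, and 94.8% held the start site. Taking only regions at least as wide as the median PHx promoter region gave 373 regions, 20559 bp and 93.0%. Taking only stretches without unused sham peak numbers gave 72 regions, 11266 bp and 79.2%. With the class within 1 kb alone the start site lay inside 95.7%. Counting 1 region per protein-coding gene moved no list count or share by over 1.5 times. The count by start sites inside took each gene assigned to any PHx or sham region at its most upstream listed start site alone. It moved 2 counts of 47, to 1 for the Wnt list and to 4 for the homeobox list. As a share of each list it moved 6 lists by over 1.5 times, all downward, while the share over all genes was 14.0%: the Kupffer cell list to 25%, the growth factor list to 5.56%, the Wnt list to 3.45%, the Ras, Rab and Arf list to 12.7%, the homeobox list to 8.51% and the phosphoinositide list to 9.8%. The cause of these differences beyond the construction of each rule was not tested. No paired analysis was possible because each group has 1 merged list.

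With 2 libraries per group merged before deposit, neither the spread between libraries nor the depth behind a region is known. An absent sham region means that no peak was listed there for both sham libraries, at thresholds not given in the sources used here. The list shares rest on few regions, and most of their intervals span the 17.5% of all promoter regions.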
